A study of Mus musculus with 13 samples.

Results

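The fibrous sheath and the outer dense fibres are protein structures that wrap the axoneme of the sperm tail, and their transcripts were followed here in mice carrying different doses of Wfdc15a. The set holds 10 genes, chosen by symbol as components of the tail skeleton, and the deposited table of 30479 genes listed 10 of 10: Akap3, Fscb, Fsip1, Fsip2, Cabyr, Ropn1, Ropn1l, Gapdhs, Odf1 and Odf2. The study asked what Wfdc15a, a gene of the WAP four-disulfide core family, does in spermatogenesis. RNA from mice at postnatal day 25 was sequenced after Smart-seq2, a whole-transcript amplification of polyadenylated RNA that does not keep the strand. Round spermatids, the haploid cells made by meiosis, had been sorted by flow cytometry after DNA staining and gave 3 libraries of knockouts (KO), 2 of heterozygotes (Het) and 2 of wild types (WT). Whole testis gave 3 KO libraries, 1 Het library and 2 WT libraries. The sources used here do not give the strain or the allele, nor whether the mice behind a group were separate or pooled. A p-value therefore reflects the spread among these libraries alone, which may be technical.

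The fibrous sheath surrounds the principal piece of the flagellum and is built on A-kinase anchoring proteins, which tether protein kinase A and carry enzymes of glycolysis to the place where the tail uses ATP. Outer dense fibres run along the microtubule doublets of the axoneme and stiffen the tail. Most genes of both structures are transcribed in haploid spermatids, in part well before the protein is laid down in elongating cells, and much of haploid transcription in the mouse depends on CREM, an activator that binds cyclic AMP response elements.

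Worked back from the step of 1 read in the values, round spermatid libraries had been scaled to totals of 10825690 to 20927428 reads. Testis libraries had been scaled to totals of 7375270 to 18438704. At those totals 3 reads, the level that a gene without a read could still have, stood for 0.143 to 0.407 RPM. This is the deposited unit, in which a gene's reads are scaled by the library total. The limit of 3 reads covers counting error only, since reads without molecular identifiers are not independent molecules. Wfdc15a was at 97.9, 67.4 and 48.1 RPM in the round spermatid libraries labelled KO, 65.0 and 71.5 in the Het and 267 and 234 in the WT ones. The testis libraries labelled KO held 116, 36.8 and 44.3 RPM of it, the Het library 48.4 and the WT libraries 212 and 207. KO and Het levels overlapped and replicate 1 of the libraries labelled KO was above Het in both cell types, so Wfdc15a reads do not separate these labels, and every KO difference below follows the labels as given. In each cell type the 1st principal component of all other genes put the WT libraries and the library labelled KO replicate 1 on one side (set 1) and the Het libraries and KO replicates 2 and 3 on the other (set 2). The component held 55.6% of the variance in round spermatids and 71.6% in testis, and the labels name no batch that matches the sets.

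The sets also differed in markers of other cells. Summed transcripts of 9 Sertoli cell markers were 1389 to 1508 RPM in set 2 and 17.1 to 68.1 RPM in set 1 of testis, and 59.3 to 171 RPM in set 2 and 3.48 to 10.4 RPM in set 1 of round spermatids. The 5 stromal markers summed to 738 to 1214 RPM in set 2 and 12.3 to 204 RPM in set 1 of testis, and to 476 to 1054 RPM in set 2 and 1.77 to 5.14 RPM in set 1 of round spermatids. The sum of the 7 late spermatid markers went the other way. In testis it was 509 to 637 RPM in set 2 and 1934 to 4996 RPM in set 1. In round spermatids it was 765 to 1121 RPM in set 2 and 1434 to 1987 RPM in set 1. Single late spermatid markers did not all share a direction: between KO and WT testis, 5 of the 7 were lower in KO and 2 higher. The 8 round spermatid markers were each detected in every library and summed to 1929 to 2699 RPM in the sorted cells and 934 to 1305 RPM in testis. Of the Sertoli markers, Amh had no read in 6 of 7 round spermatid libraries, nor in the 3 set 1 libraries of testis. Whether these markers account for any member's difference was not tested.

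Promoter sequence was read for the members whose start sites are in RefSeq's table for GRCm38.p6, the build of the files under its other name, mm10. The genes read were Akap3, Fscb, Fsip2, Ropn1, Ropn1l, Gapdhs and Odf2, 7 of the 10. Odf1 and Fsip1 had no match and Cabyr was not analysed here for sequence. The 250 bases before each start were searched on both strands. A member counted if any of its starts held the motif, and Gapdhs and Odf2 have several. The shares beside these counts are over single promoters, so the 2 are not alike in measure. The full cyclic AMP response element TGACGTCA was in 0 of 7, against 1.55% of 32851 promoters. Its half-site TGACG, which is also contained in the full element, was in 2 of 7 (Fsip2 and Odf2), against 17.8%. The variant TGATGTCA was chosen after the sequences had been seen, so its count is a description only: it was in 3 of 7 (Akap3, Fscb and Gapdhs), against 2.93% of promoters. TATAAA was in 0 of 7 against 12.4%, GTTGCC in 1 of 7 (Ropn1l) against 10.4%, and CCAAT in 4 of 7 (Akap3, Fscb, Fsip2 and Odf2) against 33.8%. A match is not evidence of binding.

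The 120 bases before the start are printed 5′ to 3′ on the gene's strand for the 3 genes with the variant, capitals marking TGATGTCA or its reverse complement, and for Ropn1l, the member with the highest level per length, as a promoter without it. Akap3 is chr6:126852978-126853097 on the plus strand, Fscb chr12:64474899-64475018 on the minus strand, Gapdhs chr7:30743682-30743801 at its outer start and chr7:30739408-30739527 at its inner start on the minus strand, and Ropn1l chr15:31453690-31453809 on the minus strand.
Akap3: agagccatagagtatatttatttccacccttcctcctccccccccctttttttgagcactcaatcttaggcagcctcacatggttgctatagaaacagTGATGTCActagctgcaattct
Fscb: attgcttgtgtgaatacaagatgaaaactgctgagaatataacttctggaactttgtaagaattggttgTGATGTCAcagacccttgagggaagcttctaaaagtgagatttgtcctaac
Gapdhs, outer start: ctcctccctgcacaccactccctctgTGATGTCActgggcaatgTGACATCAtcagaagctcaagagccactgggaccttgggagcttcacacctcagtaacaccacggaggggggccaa
Gapdhs, inner start: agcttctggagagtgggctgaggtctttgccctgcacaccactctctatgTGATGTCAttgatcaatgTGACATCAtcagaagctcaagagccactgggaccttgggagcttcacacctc
Ropn1l: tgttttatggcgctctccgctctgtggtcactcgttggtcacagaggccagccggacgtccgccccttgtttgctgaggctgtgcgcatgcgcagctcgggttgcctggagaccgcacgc
Counted from the start, the variant covered bases -22 to -15 in Akap3 and -51 to -44 in Fscb. Each Gapdhs start carried it on both strands, at -94 to -87 and -76 to -69 before the outer start and at -70 to -63 and -52 to -45 before the inner start.

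Akap3 and Fscb moved together across the libraries. Akap3, the anchoring protein that helps to build the sheath's ribs, lies on chromosome 6 from 126853098 to 126874308 of mm10. It was at 361, 366 and 296 RPM in KO, 316 and 374 in Het and 263 and 280.3 in WT round spermatids. Testis held 114, 171 and 136 RPM in KO, 153 in Het and 27.7 and 25.5 in WT. Every round spermatid library was above every testis library, and the WT testis libraries stood well below the other 4. Fscb encodes a sheath protein that binds CABYR and lies on chromosome 12 from 64471330 to 64474690. Round spermatids held 128, 116 and 123 RPM in KO, 95.5 and 129.5 in Het and 92.2 and 84.8 in WT, and testis held 53.3, 60.0 and 47.4 RPM in KO, 67.1 in Het and 14.9 and 8.24 in WT. As for Akap3, every round spermatid library was above every testis library, and the WT testis libraries were lowest. Among the members, the root mean square difference between the centred log2 values of Akap3 and Fscb over 13 libraries was the smallest of any pair, 0.20.

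Fsip1 and Fsip2 encode sheath-interacting proteins, of which FSIP2 is a very large scaffold whose loss in men goes with malformed flagella. Fsip1 (chromosome 2, 118130424 to 118256966) was at 247, 215 and 189.5 RPM in KO, 212 and 223 in Het and 200.4 and 203 in WT round spermatids. Testis held 26.0, 87.2 and 90.7 RPM in KO, 102.5 in Het and 35.5 and 66.7 in WT. The cell types did not overlap, while the KO testis libraries lay on both sides of WT. Fsip2 (chromosome 2, 82943634 to 83008937) was at 255, 549 and 428 RPM in KO, 651 and 655 in Het and 557 and 481 in WT round spermatids. Testis held 257, 309.8 and 262 RPM in KO, 346 in Het and 29.8 and 58.9 in WT. KO replicate 1 was the lowest round spermatid library and lay below every KO and Het testis library.

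Cabyr, Ropn1 and Ropn1l encode proteins with a docking domain like that of the kinase's regulatory subunit, through which they bind anchoring proteins of the sheath. Cabyr, a calcium-binding protein (chromosome 18, 12740322 to 12755260), was at 408, 333 and 288 RPM in KO, 310.5 and 318 in Het and 469 and 411 in WT round spermatids. Testis held 249.8, 125 and 124 RPM in KO, 135 in Het and 120.1 and 92.7 in WT. All round spermatid libraries exceeded all testis libraries, and KO replicate 1 was the highest in testis. Ropn1 (chromosome 16, 34649921 to 34678618) was at 446, 315 and 212 RPM in KO, 269.9 and 263 in Het and 518 and 476 in WT round spermatids, and at 216, 111 and 85.2 RPM in KO, 126 in Het and 397 and 323 in WT testis. Ropn1l (chromosome 15, 31441211 to 31453737) was at 2542.5, 1775 and 1528 RPM in KO, 1630.0 and 1529.8 in Het and 2723 and 2731 in WT round spermatids. Its testis values were 2236.5, 1014 and 978 RPM in KO, 885 in Het and 2156 and 2227 in WT. For both ropporins the set 1 libraries were the highest of their cell type, and the WT testis libraries were above several round spermatid libraries. The ropporins were each other's nearest member, with a root mean square difference of 0.27.

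Gapdhs, the glyceraldehyde-3-phosphate dehydrogenase of sperm that is bound to the sheath, is on chromosome 7 from 30729775 to 30743681. It was at 61.3, 32.8 and 26.8 RPM in KO, 41.4 and 42.7 in Het and 122 and 111 in WT round spermatids. Testis held 344, 27.0 and 20.3 RPM in KO, 17.1 in Het and 41.5 and 33.6 in WT. The testis library labelled KO replicate 1 stood above every other library of either cell type. Gapdhs overlaps the antisense gene Tmem147os, which was at 347, 27.2 and 20.3 RPM in KO, 18.04 in Het and 42.4 and 34.4 in WT testis. Because the libraries keep no strand, reads of these 2 genes cannot be told apart, and the Gapdhs values hold both.

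The outer dense fibre genes differed from each other by level and by pattern. Odf1, a main fibre protein related to small heat shock proteins (chromosome 15, 38219203 to 38226735), was at 24.5, 19.6 and 10.6 RPM in KO, 14.1 and 15.6 in Het and 45.3 and 40.6 in WT round spermatids. Testis held 71.2, 10.5 and 8.61 RPM in KO, 6.81 in Het and 4.39 and 6.59 in WT. As with Gapdhs, KO replicate 1 of testis exceeded every round spermatid library, and Gapdhs was the member nearest to Odf1, at 0.50. Odf2 encodes a coiled-coil protein of the fibres that is also part of centriole appendages in other cells (chromosome 2, 29889221 to 29931746). It was at 3273, 3474 and 3206 RPM in KO, 3316 and 3318 in Het and 2547 and 2863 in WT round spermatids, and at 1382.5, 1889 and 1953 RPM in KO, 1906 in Het and 1839 and 1704 in WT testis. No testis library reached the lowest round spermatid library, and Odf2 varied least of the members around its cell-type means, with a root mean square of 0.16 on the log2 scale against 1.12 for Gapdhs.

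**Figure D1:**
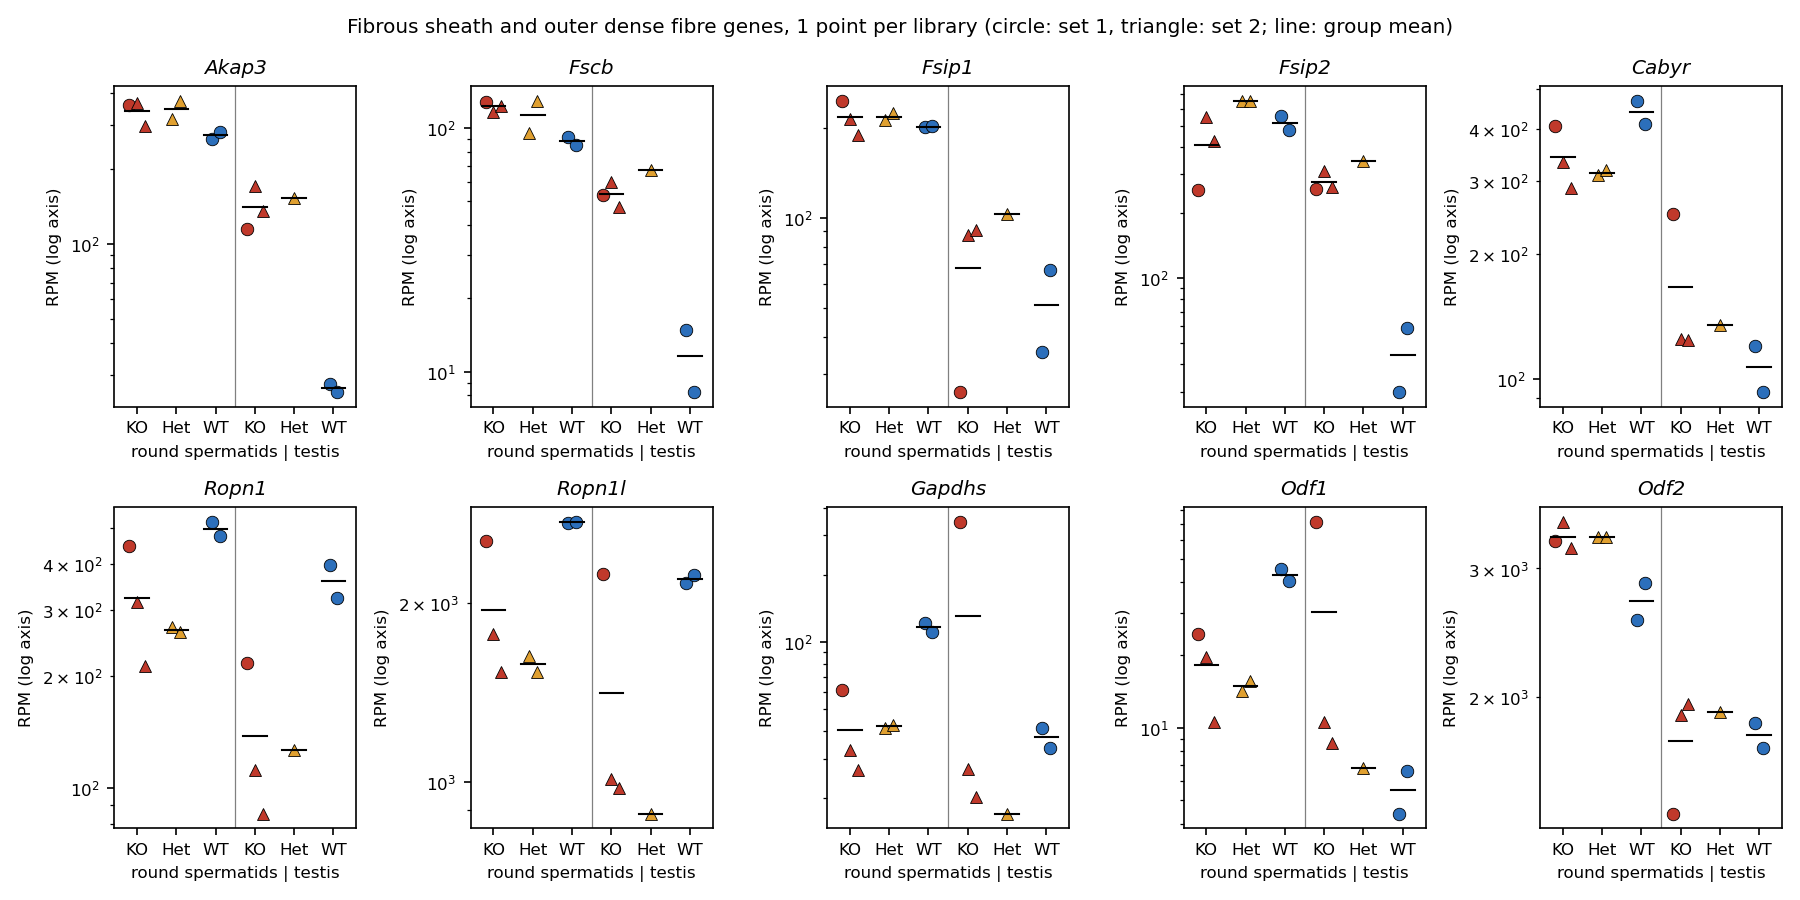
RPM on a log axis for each member, 1 point per library, by genotype (KO, Het, WT) in round spermatids and then testis. Circles are set 1, triangles set 2, and lines group means. Akap3, Fscb, Fsip1, Cabyr and Odf2 separate the cell types in every library, and the KO replicate 1 testis library stands apart for Gapdhs (344 RPM) and Odf1 (71.2 RPM).

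Per kilobase of the longest transcript, the order in round spermatids ran from Ropn1l, with a median of 1855 RPM per kb (range 1597 to 2854, 7 libraries), through Odf2 at 827 (643 to 877), Ropn1 at 360.1 (242 to 592) and Cabyr at 157 (136 to 221). Fsip1 at 102 (91.3 to 119) and Akap3 at 100.2 (83.5 to 119) followed. These neighbours did not overlap down to Cabyr and Fsip1, while Fsip1 and Akap3 did not differ beyond their spread. At the low end came Fscb at 34.5 (25.2 to 38.5), Gapdhs at 29.3 (18.4 to 83.8), Fsip2 at 26.0 (12.1 to 31.0) and Odf1 at 17.8 (9.57 to 41.0), whose ranges all overlapped. In testis the medians kept Ropn1l (1656), Odf2 (471), Ropn1 (196) and Cabyr (58.6) at the top and Odf1 (6.98) at the bottom. The library sets differed with transcript length, so the place of the longest member, Fsip2, and of the short ones carries that limit.

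In WT mice 5 sheath genes were higher in sorted round spermatids than in whole testis, while the ropporins, Gapdhs and both fibre genes did not pass the test. On average all 10 members were higher, or 9 once libraries were centred on their medians, which turned Ropn1l to -0.032. The 5 that passed were Fsip2 12.1-fold, Akap3 9.89-fold, Fscb 7.39-fold, Cabyr 4.13-fold and Fsip1 4.08-fold on the log2(RPM + 1) scale. Of all 20085 genes tested, 11.5% passed, 9.09% in the higher and 2.39% in the lower direction. In a whole organ a lower level can mean fewer round spermatids or less RNA per cell, and these cannot be told apart. The tests were limma's moderated linear model with Benjamini-Hochberg adjustment over all genes.

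The log2 difference of round spermatids from testis was 3.31 ± 0.26 (SE) for Akap3 (limma, adjusted p = 3.5e-04) and 3.59 ± 0.37 for Fsip2 (limma, adjusted p = 4.8e-04). It was 2.89 ± 0.33 for Fscb (limma, adjusted p = 6.2e-04), 2.05 ± 0.34 for Cabyr (limma, adjusted p = 0.0035) and 2.03 ± 0.52 for Fsip1 (limma, adjusted p = 0.028). Odf1, at 2.78 ± 0.82 (limma, adjusted p = 0.051), and Odf2, at 0.61 ± 0.19 (limma, adjusted p = 0.058), lay just outside the threshold of 0.05. Gapdhs differed by 1.61, with a 95% interval of -0.61 to 3.84. Ropn1 differed by 0.47 (-0.45 to 1.39) and Ropn1l by 0.32 (-0.47 to 1.10). The median of the 10 members was 2.04, beside 0.20 over all genes, and the 2 WT libraries of each cell type did not overlap for any of the 10, which held for 38.6% of all genes in the higher direction. Without any 1 of the 4 WT libraries Fsip1 no longer passed, with a limma adjusted p of 0.0501 to 0.221.

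In KO mice Akap3 was 2.44-fold, Fscb 2.27-fold, Fsip1 3.59-fold and Odf2 1.93-fold higher in round spermatids than in testis, and these 4 members passed the test, beside 2.36% of all genes (0.936% in the higher and 1.42% in the lower direction). Their log2 differences were 1.29 ± 0.21 (limma, adjusted p = 0.020), 1.18 ± 0.27 (limma, adjusted p = 0.047), 1.85 ± 0.43 (limma, adjusted p = 0.049) and 0.95 ± 0.15 (limma, adjusted p = 0.019). Ropn1, at 1.28 (limma, adjusted p = 0.070), and Cabyr, at 1.11 (limma, adjusted p = 0.061), missed the threshold. Both passed with the replicate number as a block (limma, adjusted p = 0.030 and 0.033), and the count over all genes went to 987 with the block, against 474 without it. The KO libraries of the cell types did not overlap for Akap3, Fscb, Fsip1, Cabyr and Odf2, 5 members, against 10.4% of all genes in the higher direction. Fsip2 differed by 0.50 (95% interval -0.16 to 1.17) and Ropn1l by 0.55 (-0.09 to 1.19). Gapdhs, at -0.60 (-2.42 to 1.21), and Odf1, at -0.13 (-1.61 to 1.34), had intervals that spanned 0, and Odf1 turned to 0.34 in centred and 0.45 in quantile-normalized libraries. Without KO replicate 1 of testis Gapdhs was at 0.67 and Odf1 at 0.79, and 7 members passed, beside 40.2% of all genes. Without KO replicate 2 of testis 1 member passed, beside 0.287% of all genes. Without KO replicate 3 of testis or any KO round spermatid library 0 did, beside 0.0908% to 0.23%.

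The cell-type difference was also taken within the library sets. In set 2 all 10 members were higher in round spermatids, by 0.33 to 1.40 in KO (2 libraries of each cell type, median 0.95) and by 0.72 to 1.25 in Het (2 libraries against 1, median 1.05), where the medians over all genes were -0.31 and -0.27. In set 1 the differences were 0.32 to 3.59 in WT (median 2.04) and -2.47 to 3.19 in the single KO pair (median 0.87, 7 of 10 positive). The extremes of that pair were Gapdhs at -2.47 and Fsip1 at 3.19. Across all genotypes, every round spermatid library exceeded every testis library for 5 members, Akap3, Fscb, Fsip1, Cabyr and Odf2, against 4% of all genes.

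**Figure D2:**
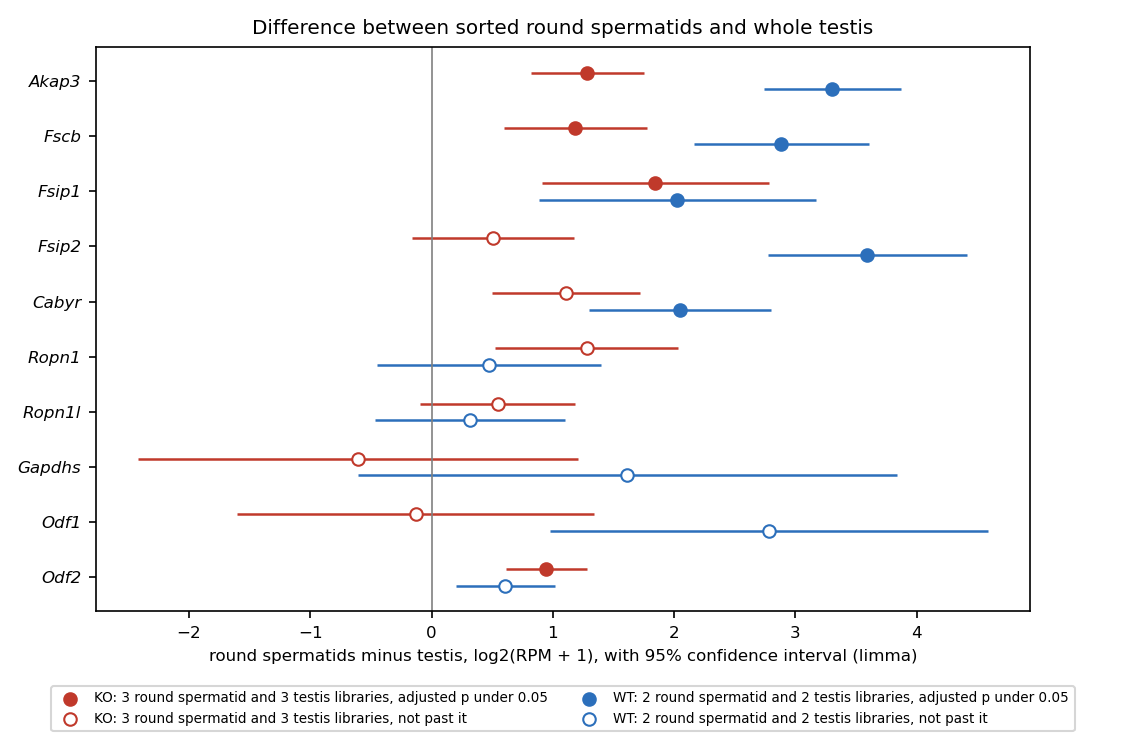
Difference of round spermatids from testis on log2(RPM + 1) for each member, with 95% confidence intervals from limma, in KO and in WT mice. In WT the intervals, which are not adjusted over genes, lie above 0 for all members but Ropn1, Ropn1l and Gapdhs. In KO those for Fsip2, Ropn1l, Gapdhs and Odf1 span 0.

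KO and WT were then compared within each cell type, the comparison the study was built for. In testis 0 of 18570 genes passed limma's test (0%), although 4380 had an unadjusted p under 0.05, and voom on the recovered reads also called 0. The members with the largest differences were Fsip2, which averaged 276 ± 29.0 RPM in KO and 44.3 ± 20.6 RPM in WT (SD, n = 3 and 2), and Akap3, which averaged 140.5 ± 28.8 RPM in KO and 26.6 ± 1.51 RPM in WT. Fscb averaged 53.6 ± 6.33 RPM in KO and 11.5 ± 4.68 RPM in WT.

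On the log2 scale the KO minus WT difference in testis was 2.69 ± 0.38 for Fsip2 and 2.34 ± 0.36 for Akap3 (limma, adjusted p = 0.071 for each). No gene reached a smaller adjusted p, but the value is a tie. Ldhc, Pmfbp1, Sycp1, Dcn, Col1a2 and Col3a1 are among the other genes that share it, so it does not rank these members first. The difference was 2.17 ± 0.47 for Fscb (limma, adjusted p = 0.077). Ropn1 was at -1.49 ± 0.45 (limma, adjusted p = 0.13) and Ropn1l at -0.75 ± 0.41 (limma, adjusted p = 0.31). Odf1 was at 1.64 with a 95% interval of -0.83 to 4.12 and Gapdhs at 0.62 (-2.27 to 3.52). Gapdhs turned to -0.65 without KO replicate 1, to -0.32 with centred and to -0.26 with quantile-normalized libraries. Cabyr was at 0.57 and Fsip1 at 0.28, which turned to -0.37 and -0.67 in centred libraries, and Odf2 at -0.04 turned to 0.70 in quantile-normalized ones. The median difference over all genes was itself 0.63, so the member median of 0.60 lay beside it. Groups did not overlap for 6 members, 5 higher (Akap3, Fscb, Fsip2, Cabyr, Odf1) and 1 lower (Ropn1), against 42.3% of all genes (28.2% higher, 14.1% lower). Without KO replicate 1 all KO libraries were of set 2 and all WT libraries of set 1, so genotype and set cannot be told apart. Limma's test then called 6 members, beside 65.2% of all genes, a share that makes the count no result about the members.

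In round spermatids the largest KO differences were those of Gapdhs and Odf1, on the lower side, and again 0 of 18075 genes passed limma's test (0%), with 3813 at an unadjusted p under 0.05 and 0 by voom. Gapdhs averaged 40.3 ± 18.5 RPM in KO and 116 ± 8.05 RPM in WT (SD, n = 3 and 2), and Odf1 averaged 18.2 ± 7.05 RPM in KO and 43.0 ± 3.34 RPM in WT. Ropn1 averaged 324 ± 117 RPM in KO and 497 ± 29.9 RPM in WT, and Ropn1l 1948.5 ± 529 RPM in KO and 2727 ± 5.98 RPM in WT. The log2 differences were -1.60 ± 0.32 for Gapdhs (limma, adjusted p = 0.12), -1.27 ± 0.36 for Odf1 (limma, adjusted p = 0.13), -0.68 ± 0.26 for Ropn1 and -0.52 ± 0.20 for Ropn1l (limma, adjusted p = 0.19 for each). Akap3 was at 0.32 with an interval of -0.07 to 0.71, Fscb at 0.46 (0.01 to 0.92), Odf2 at 0.30 (0.01 to 0.58) and Fsip1 at 0.10 (-0.30 to 0.49). Cabyr was at -0.37 (-0.78 to 0.04) and Fsip2 at -0.40 (-1.01 to 0.20). KO and WT did not overlap for 8 members, 3 higher (Akap3, Fscb, Odf2) and 5 lower (Cabyr, Ropn1, Ropn1l, Gapdhs, Odf1), against 36% of all genes (16.6% higher, 19.4% lower). Without KO replicate 1, which again left set 2 against set 1, limma's test called 6 members, beside 30.8% of all genes.

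The same differences were then taken within the library sets. In set 2, where KO replicates 2 and 3 stood beside Het, the 10 members differed by -0.49 to 0.10 in round spermatids (median -0.04) and by -0.37 to 0.43 in testis (median -0.06), KO minus Het. In set 1, where KO replicate 1 stood beside the WT libraries, they differed by -1.02 to 0.53 in round spermatids (median -0.10). In set 1 of testis the range was wide, -0.88 to 3.50, with Odf1 at 3.50, Gapdhs at 3.17, Fsip2 at 2.59, Fscb at 2.17, Akap3 at 2.06, Cabyr at 1.24 and Fsip1 at -0.88, and this rests on 1 KO library. That library had the fewest genes with a read, 15435, against 19966 to 23092 in the other 12. It also had the smallest read total of all libraries, 7375270.

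With WT and Het pooled as the comparison group, 0 genes passed limma's test in either cell type (0% in each), with 477 in testis and 824 in round spermatids at an unadjusted p under 0.05 and 0 by voom in both. Gapdhs was at 0.98 in testis and -0.87 in round spermatids, and Fsip2 at 1.68 in testis and -0.57 in round spermatids, KO minus the others. Gapdhs turned to -0.29 in testis without KO replicate 1.

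The KO difference itself was compared between the cell types in a single fit. It was lower in round spermatids than in testis by 3.09 ± 0.48 for Fsip2 (limma, adjusted p = 0.018, log2 difference -3.09) and by 2.02 ± 0.33 for Akap3 (limma, adjusted p = 0.020, log2 difference -2.02). These 2 members passed, beside 2.13% of all 20085 genes (1.84% in the lower direction). Fscb, at -1.70 ± 0.42, did not (limma, adjusted p = 0.064). The median over all genes was -0.48. With centred or quantile-normalized libraries 0 members passed, beside 0% and 0.00498% of all genes, so that loss is not particular to the members. Leaving out single libraries gave 0 to 5 members, the 5 without KO replicate 1 of testis, where 31.1% of all genes passed. Without any other single library 0 to 2 members and 0% to 0.846% of all genes did.

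**Figure D3:**
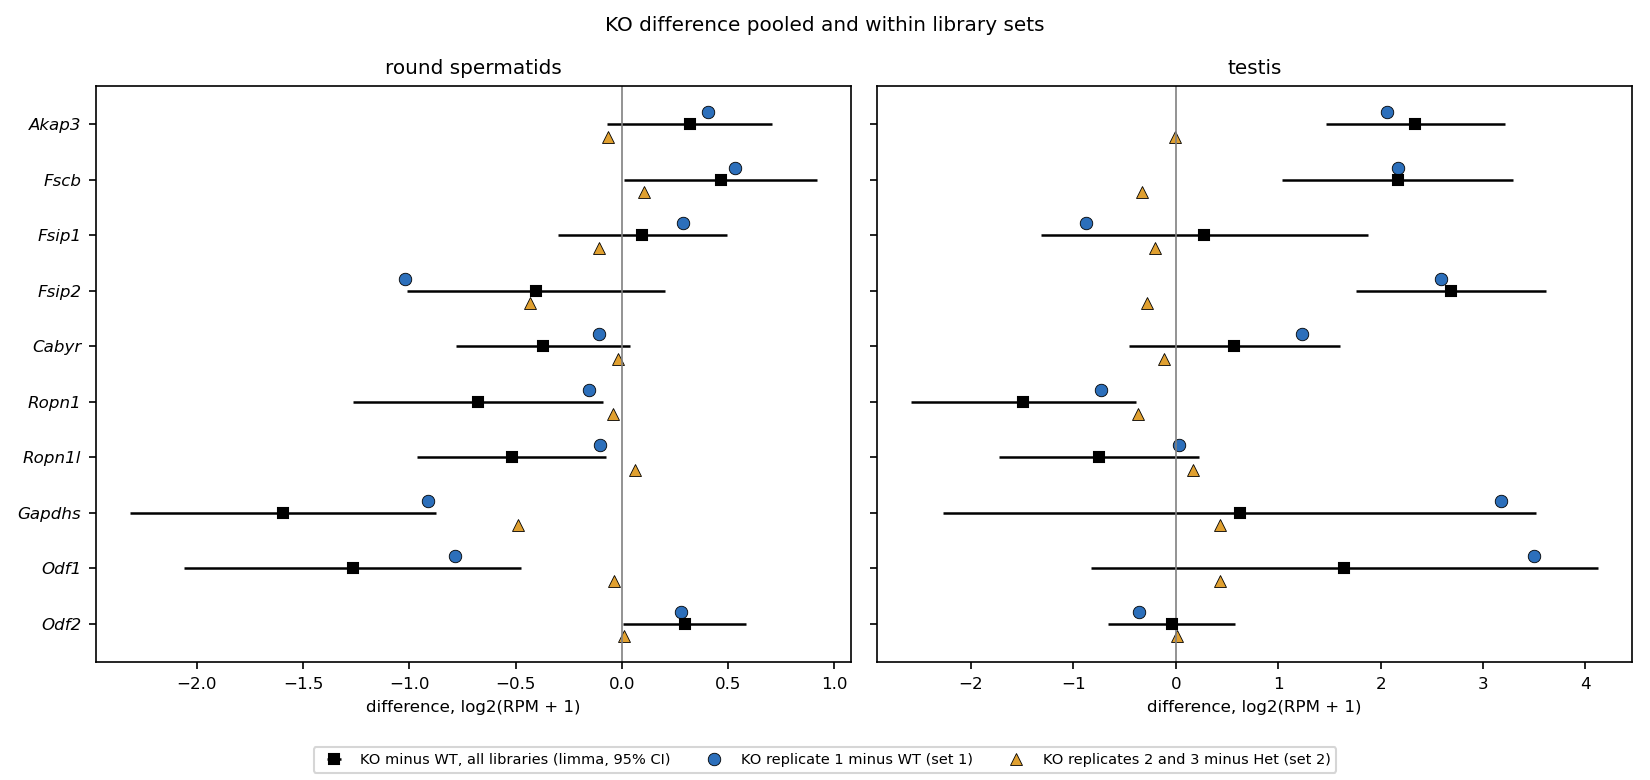
KO differences on log2(RPM + 1) for each member in round spermatids and in testis: KO minus WT over all libraries with 95% intervals, KO minus WT within set 1, and KO minus Het within set 2. The set 2 points stay within -0.49 to 0.43, and the set 1 testis points for Odf1 and Gapdhs lie beyond 3.

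Set 2 and set 1 differed in a graded way across the members. In round spermatids the set 2 minus set 1 difference ran from -1.39 for Gapdhs and -1.23 for Odf1 through -0.87 for Ropn1, -0.72 for Ropn1l and -0.46 for Cabyr to 0.17 for Akap3, 0.20 for Fscb, 0.21 for Odf2 and 0.46 for Fsip2, with Fsip1 at -0.04. In testis it was -1.85 for Gapdhs, -1.50 for Ropn1, -1.20 for Ropn1l, -0.59 for Odf1 and -0.14 for Cabyr, and 0.23 for Odf2, 1.22 for Fsip1, 1.55 for Fscb, 1.79 for Akap3 and 1.97 for Fsip2. The 5 members lowest in set 2 were thus Gapdhs, Odf1, Ropn1, Ropn1l and Cabyr in both cell types.

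Members with longer transcripts were higher in set 2. The longest transcripts are 21116 bases for Fsip2, 3959 for Odf2, 3361 for Fscb and 3153 for Akap3, and the shortest are 1457 for Gapdhs, 1105 for Odf1, 957 for Ropn1l and 875 for Ropn1. Across the 10 members, which share the same libraries, Spearman's rho between length and the set difference was 0.88 in round spermatids and 0.82 in testis, and over all genes it was 0.35 (17672 genes) and 0.39 (18162 genes). These are descriptions across genes, which are not independent replicates. Genes up to 1000 bases had a median set difference of -0.40 in round spermatids and -0.29 in testis, and those over 6000 bases 0.50 and 1.69. With a smooth curve on transcript length removed from each library, the KO minus WT difference in testis went to 1.86 for Fsip2, 2.08 for Akap3, 1.87 for Fscb and -0.66 for Ropn1, while Ropn1l turned to 0.012. In round spermatids Gapdhs stayed at -1.53 and Odf1 at -1.05 after that removal, with Ropn1 at -0.34 and Ropn1l at -0.23.

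**Figure D4:**
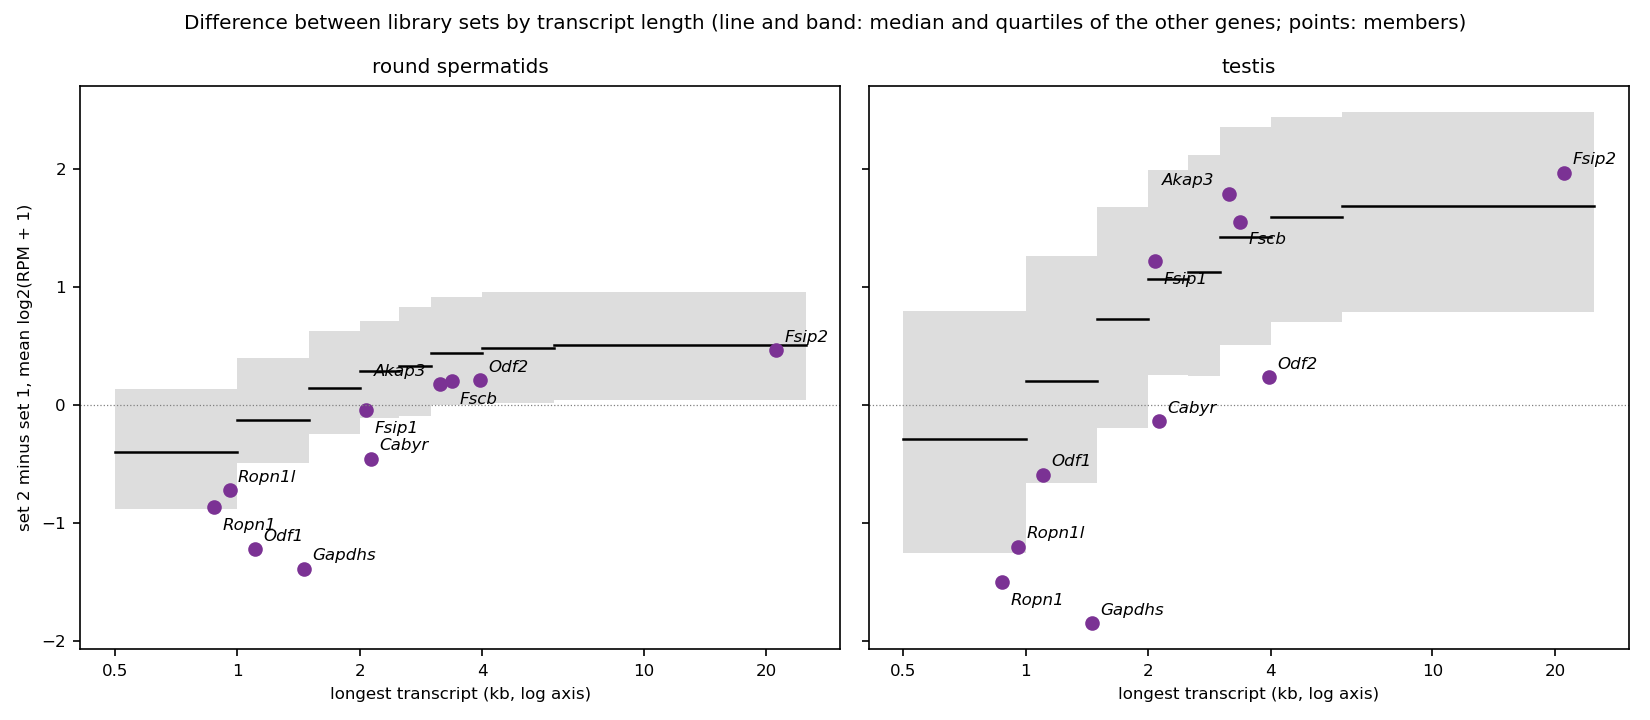
Set 2 minus set 1 difference in mean log2(RPM + 1) against the length of the longest transcript (log axis, kb), in round spermatids and testis. Points are the members, and the line and band are the median and quartiles of the other genes in bins of length. Short members (Ropn1, Ropn1l, Odf1, Gapdhs) lie below 0 and the long member Fsip2 lies above 0 in both.

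Other genes of the tail were taken from lists of partners. Among 13 fibrous sheath partners, 4 passed as higher in round spermatids than in testis in WT and 0 as lower. They were Akap14 3.40 ± 0.75, Prkaca 2.71 ± 0.56, Akap4 1.26 ± 0.28 and Prkar1a 1.24 ± 0.26 on the log2 scale (limma, adjusted p = 0.010 to 0.015). By sign alone, 9 partners were higher and 4 lower in WT. Of all genes, 9.09% passed as higher and 2.39% as lower in WT, and 0.936% and 1.42% in KO. Akap4 is the sheath's most abundant anchoring protein, Prkaca a catalytic and Prkar1a a regulatory subunit of protein kinase A. The list's median was 0.81 in WT and 0.55 in KO, beside 0.20 and -0.14 over all genes. In KO only Akap4 passed, at 1.14 ± 0.23 (limma, adjusted p = 0.033). Among 17 other genes of the dense fibres and of the head-tail connecting piece, 16 were tested. In WT 8 passed as higher in round spermatids and 0 as lower, with a median of 1.24 (0.75 in KO). By sign alone, 15 were higher and 1 lower in WT. Hook1, which passed, and Oaz3 are also among the late spermatid markers. The 8 included Pmfbp1, needed to attach the head, at 3.17 ± 0.29 (limma, adjusted p = 3.5e-04), Sun5, another attachment factor, at 2.88 ± 0.58 (limma, adjusted p = 0.0089), and Tssk4, a spermatid kinase that acts on ODF2, at 2.21 ± 0.35 (limma, adjusted p = 0.0028). In KO 3 of them passed, Tssk4 at 1.47, Pmfbp1 at 1.03 and Spata6 at 0.89 (limma, adjusted p = 0.027 to 0.047).

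Genes of glycolysis, the pathway to which Gapdhs belongs, did not share one direction. Their median was 0.09 in WT and 0.44 in KO. Of 15 tested, 3 were higher in WT round spermatids, Aldoart1 at 2.47 ± 0.52, Hk1 at 2.28 ± 0.38 and Aldoa at 0.95 ± 0.25, and 2 lower, Ldhc at -0.72 ± 0.16 and Ldha at -0.62 ± 0.16 (limma, adjusted p = 0.0035 to 0.033). In KO Ldhc, the lactate dehydrogenase of sperm, was higher at 0.74 ± 0.13 (limma, adjusted p = 0.025) and Pgk1 lower at -1.93 ± 0.41 (limma, adjusted p = 0.038). Of 4 annulus genes, which mark the ring between the midpiece and the principal piece, Septin4 passed in WT at 2.43 ± 0.53 (limma, adjusted p = 0.014) and 0 passed in KO. The annulus medians were 0.58 in WT and 0.49 in KO. Between KO and WT, 0 genes of these 4 lists passed limma's test in either cell type. When the KO difference was compared between cell types, Ldhc (1.46) and Ldha (1.19) passed as higher in round spermatids (limma, adjusted p = 0.017 and 0.025). Of the fibre and connecting piece genes 1 passed as lower. Over all genes 0.294% passed as higher and 1.84% as lower, and 0% with centred libraries. The KO minus WT medians in round spermatids were 0.14 for the sheath partners, -0.08 for the fibre and connecting piece genes, 0.09 for glycolysis and -0.50 for the annulus, beside 0.03 over all genes. In testis they were 0.31, 0.80, 0.18 and -0.23 in the same order of lists, beside 0.63.

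**Figure D5:**
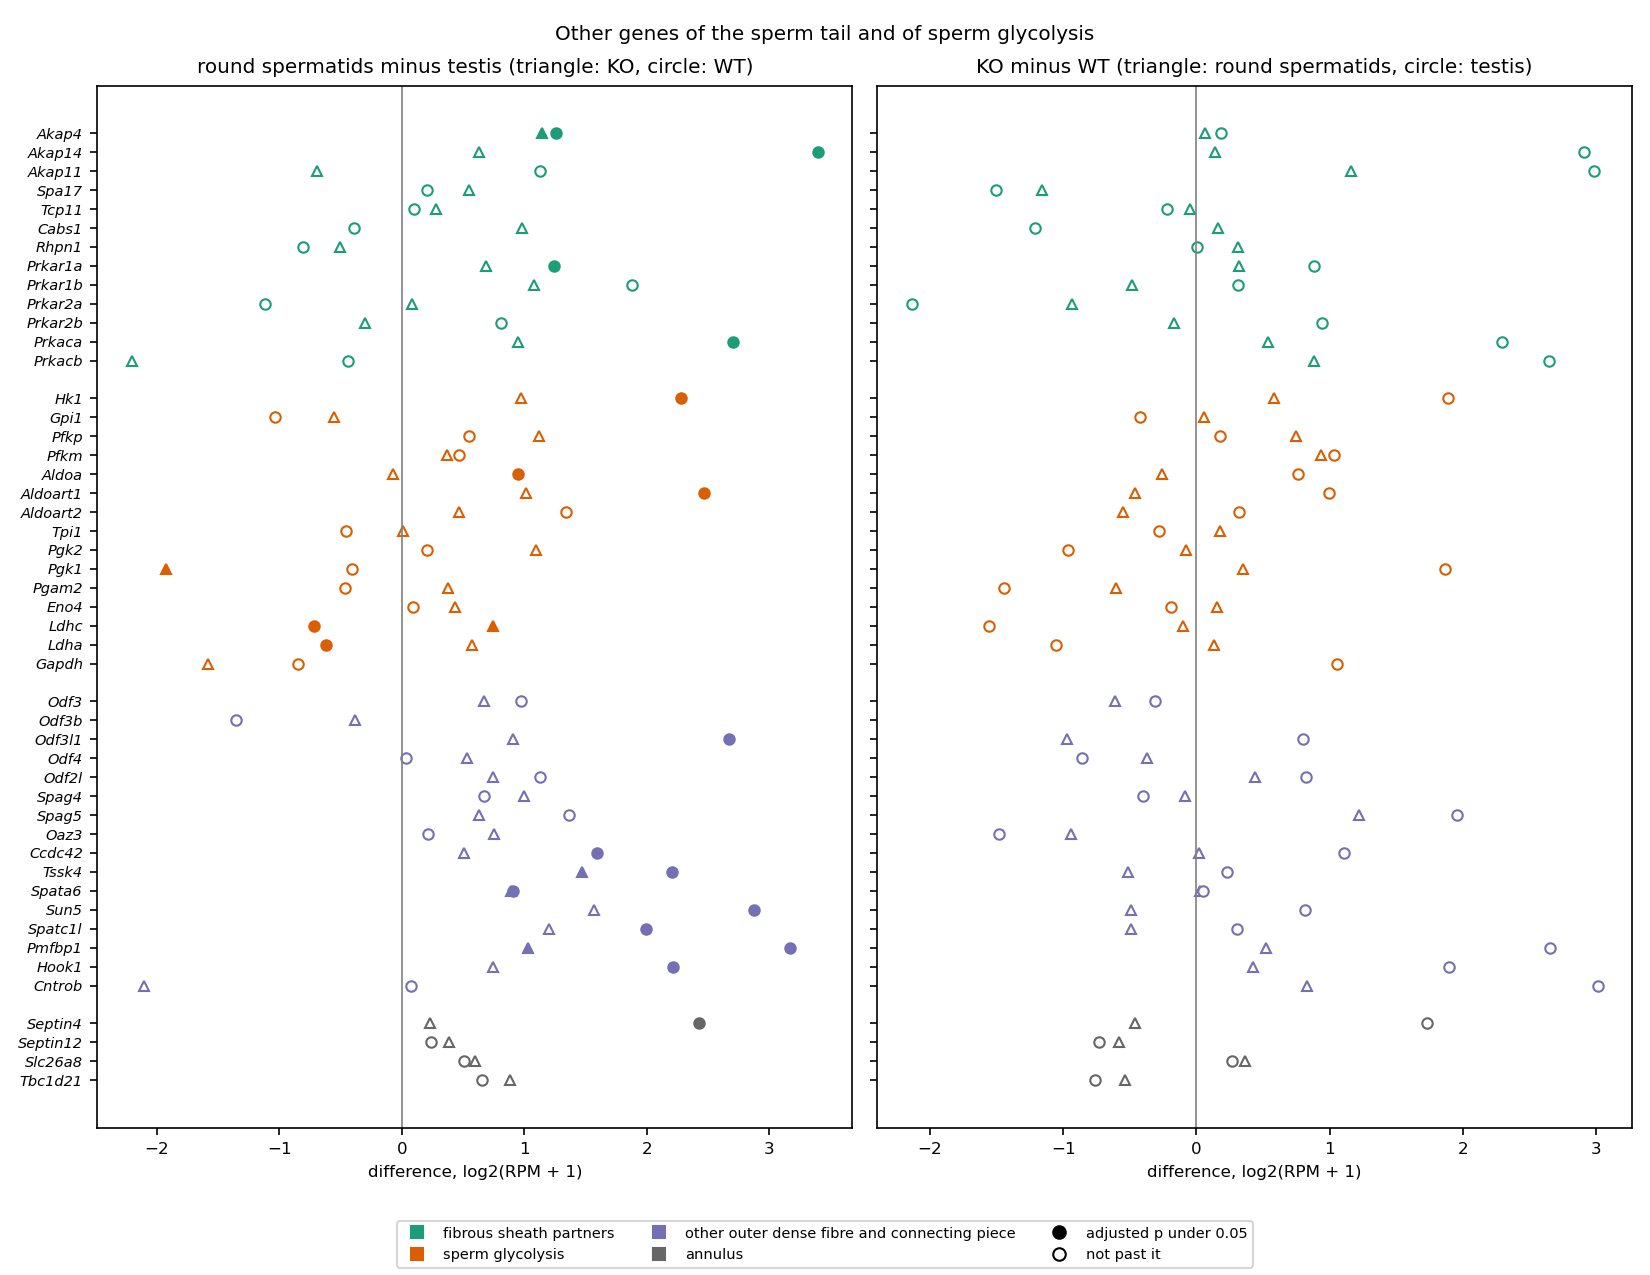
Differences on log2(RPM + 1) for the lists of partner genes, without the members, 1 point per gene and comparison: round spermatids against testis in KO and WT, and KO against WT in round spermatids and testis. Most dense fibre and connecting piece genes lie above 0 in the cell-type comparison, while glycolysis genes lie on both sides.

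Patterns over the 13 libraries, each centred within its cell type, were compared with the members' mean. Candidates were genes with a mean of at least 5 RPM, without predicted genes (Gm and Rik symbols). The 5 nearest candidates were Ankrd61, Tmod2, Catsper3, Ccdc70 and Tekt2. Their root mean square difference from that mean was 0.12 to 0.13 on the log2 scale, beside a median of 0.80 over 10054 candidate genes. The members moved in opposite directions between the sets and differed from each other by up to 1.53 (Fsip1 and Gapdhs). Their mean averages these patterns out, so nearness to it does not show likeness to any single member.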

How the data were processed

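The deposited table holds log2 RPM per gene and library, made by the authors; per the submitters' processing notes, the tools were HISAT2 2.1.0, Trim Galore 0.6.6 and FastQC 0.11.8, on mm10. The counting program is not named there. Values stepped in whole reads, with 0.9 read for a gene without one: 99.7% to 100.0% of values per library were whole within 0.01 read. The table had 0 further columns of library values.

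RPM were recovered and tested as log2(RPM + 1), which understates changes of low genes, with limma 3.58.1 in R 4.3.3 (empirical Bayes with trend, two-sided, Benjamini-Hochberg over all genes, threshold 0.05). Genes needed 1 RPM in 2 libraries, and 10 of 10 members passed in every fit. Cell-type contrasts came from 1 fit of 13 libraries, genotype contrasts from fits within a cell type. The fits were also run on simulated counts with known changes. That simulation held no library sets, so it does not show how the fits behave with the sets found here.

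Members, lists, library sets and alternatives were chosen with earlier results of these data known. Named genes were the members, Wfdc15a, the 5 nearest patterns and list genes. Lengths came from GENCODE M21, in which 96.8% of symbols were found and 99.2% of those lay at identical coordinates.

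Within a group, libraries differed beyond sampling noise (smallest chi-square per degree of freedom 10.1). Same-numbered KO libraries of the 2 cell types deviated together (r = 0.504, 0.283 and 0.403). Differently numbered KO libraries of set 2 did so too (r = 0.345 and 0.266). KO libraries of different sets deviated in opposite directions (r = -0.294 to -0.486). Deviations were taken from group means and cancel within a group, so these opposite signs follow in part from the centring. Whether the number adds anything to the library set was not tested. Same-numbered WT libraries of the 2 cell types did not deviate together (r = -0.0233), nor did same-numbered libraries within a cell type (r up to 0.0456).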

Additional observations from a re-analysis of the deposited data

Results flagged for a closer look

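The KO minus WT difference of 2 members differed between the cell types by limma's test of the difference itself (round spermatids less testis, Benjamini-Hochberg adjustment over all genes). It was -2.02 for Akap3 (limma, adjusted p = 0.020), from 0.32 in round spermatids and 2.34 in testis. It was -3.09 for Fsip2 (limma, adjusted p = 0.018), from -0.40 in round spermatids and 2.69 in testis. In testis all 3 KO libraries lay above both WT libraries for both genes, and so did the Het library, at 153 RPM of Akap3 and 346 RPM of Fsip2. Within set 2 of testis, KO minus Het was -0.0029 for Akap3 and -0.28 for Fsip2. With centred or quantile-normalized libraries neither gene passed, beside 0% and 0.00498% of all genes.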

How the results depend on the processing

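Counts below are of members passing limma's test, each with the share of all genes passing in the same fit, and a count beside a large share says nothing particular to the members. With the library set as a covariate, KO against WT rests on 1 KO library (replicate 1) and round spermatids against testis in KO on 1 library of each cell type, so those counts have no replicate behind the KO arm. In WT, round spermatids against testis, 5 passed (11.5%), 8 with library quality weights (31%) and 9 with the set covariate (37.2%). In KO 4 passed (2.36%), 2 with a pseudocount of 0.1 RPM (1.26%), 9 with weights (51.4%), 8 with the set covariate (27.7%) and 0 to 7 when a library was left out (0.0908% to 40.2%). For KO against WT in testis 0 passed (0%), 6 with weights (67.5%), 8 with the set covariate (37.7%), 4 in a fit of all 13 libraries (20.7%) and 0 to 6 when a library was left out (0% to 65.2%). In round spermatids 0 passed (0%), 7 with weights (31.6%), 1 with the set covariate (0.492%) and 0 to 6 when a library was left out (0% to 30.8%). Against WT and Het together 0 passed in testis (0%), 6 with weights (70.5%) and 7 within set 1 (42.1%), and 0 passed in round spermatids (0%), 1 with the set covariate (0.105%) and 2 within set 1 (1.26%); set 1 holds 1 KO library. For the difference between cell types 2 passed (2.13%), 0 with centred (0%) or quantile-normalized libraries (0.00498%), 8 with weights (34.6%), 8 with the set covariate (26.3%) and 0 to 5 when a library was left out (0% to 31.1%). With the replicate number as a block, 7 passed in WT (13.5%), 6 in KO (4.91%) and 1, Fsip2, in KO against WT in testis (0.819%), where Fsip1 turned to -0.025.

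The values that changed sign were mostly near 0 or those of Gapdhs and Odf1. For round spermatids against testis, Ropn1l in WT was at -0.032 with centred libraries, and in KO Odf1 was at 0.34 with centred, 0.45 with quantile-normalized libraries, 0.22 with voom and 0.77 with weights, Gapdhs at 0.42 with weights and Fsip2 at -0.015 with the set covariate. Leaving out a library gave -1.34 to 0.67 for Gapdhs and -0.66 to 0.79 for Odf1. For KO against WT in testis, centring gave Fsip1 -0.67, Cabyr -0.37 and Gapdhs -0.32. Quantile normalization gave Fsip1 -0.24, Gapdhs -0.26 and Odf2 0.70, and weights gave Gapdhs -0.60 and Odf2 0.11. Removing transcript length gave Ropn1l 0.012, and the set covariate gave Fsip1 -0.88 and Ropn1l 0.029. Leaving out a library gave -0.17 to 0.86 for Fsip1, -0.65 to 1.36 for Gapdhs and -0.13 to 0.12 for Odf2. Against WT and Het together in testis, Gapdhs was at -0.48 with weights and -0.29 to 1.72 with a library left out, and Fsip2 at -0.28 within set 2. The cause of these changes was not tested. No fit left a group of the comparison empty, and where 1 WT library remained its spread was assumed to be that of the other groups.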
